A study of Mus musculus with 6 samples.

Results

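The interferon-stimulated genes are the genes that cells switch on when an interferon binds its receptor. They were read here in the livers of 3 telmisartan-treated and 3 vehicle-treated mice. A list of 47 such genes was set against the rows of the array table that carry exactly 1 gene symbol, and 43 of the 47 were found among 22087 genes. Oas1a, Dtx3l and Gbp2 share their rows with a second gene, no row was matched to Ifi44, and these 4 genes are not reported. Of the 43 genes, 31 are counted as type I interferon genes, 6 as interferon-gamma GTPases and 6 as antigen processing genes, although many of the 31 also answer to interferon-gamma. Ifi35 and Tapbp had several probe sets, and each gene was represented by its brightest.

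Both groups were STAM mice, a model of diabetic steatohepatitis in male C57BL/6J animals. Every mouse, controls included, had received 200 μg of the beta cell toxin streptozotocin 2 days after birth and high-fat food (60 kcal% fat) from week 4 on. No mice without this disease model were compared. The telmisartan group took 5 mg/kg per day of this angiotensin II receptor blocker by mouth in 0.5% carboxymethyl cellulose, from week 6 until week 12, and the vehicle group took carboxymethyl cellulose alone. RNA of whole liver from 3 of the 7 mice of each group was hybridized, each mouse on an Affymetrix Mouse Gene 2.0 ST array of its own.

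Values are log2 of intensities that the authors normalized by robust multi-array average (RMA). The groups were compared with limma across 23094 probe sets, and a gene is called higher or lower where its fold reached 1.2 and its p before adjustment lay below 0.05. By limma no gene of the array (0% of all probe sets) had an adjusted p under 0.05, and the lowest among the 43 genes was an adjusted p = 0.696. Before adjustment, 7 of the 43 genes lay below 0.05 by limma, where 7.03% of all genes did. By the test of the study's methods 2 of the 43 did. The share of all genes below 0.05 by that test, at any fold, was not computed, so this count has no background to be read against. The median log2 intensity of the probe sets with 1 symbol lay between 3.18 and 3.23 on the 6 arrays, whose pairwise correlations were 0.984 to 0.991, and the median change over all genes was -0.00059. The 8 hepatocyte markers summed to intensities of 22999 to 24280 in the telmisartan group and 23570 to 24002 in the vehicle group, and none of them was called.

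Interferons are released when a cell senses viral RNA or displaced DNA. Type I interferons act through the kinases JAK1 and TYK2, and the signal reaches target genes at the interferon-stimulated response element (ISRE), where STAT2 and IRF9 act. Interferon-gamma acts mainly through the gamma-activated site (GAS). In the liver, hepatocytes, Kupffer cells and sinusoidal endothelial cells all answer to interferons.

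The RefSeq promoter windows, from 250 bases before to 50 after each gene start in GRCm38.p6, were searched for the core letters of both elements because these are the sequences through which the genes are known to be switched on. The ISRE core was searched as GAAA, any 2 bases and GAAA again, and the GAS as TTCNNNGAA, on both strands, and matches may overlap. A window was at hand for 32 of the 43 genes. The ISRE core stood in the windows of 17 of these 32 genes (53.1%), against 3.99% of 27025 genes. It was in those of 5 of 5 GTPases, 11 of 22 type I genes and 1 of 5 antigen processing genes. The GAS stood in 10 of 32 (31.2%), against 9.55% of all genes. A match is a run of letters and not a shown binding site.

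The stretches around the matches before the gene start are given for 3 of the called genes, Isg15, Ifit1 and Bst2, and for 3 GTPases of the Irg family, with capitals on every match to either motif. They read 5′ to 3′ on the strand of the gene.
Isg15, chr4:156200849-156200922, minus strand: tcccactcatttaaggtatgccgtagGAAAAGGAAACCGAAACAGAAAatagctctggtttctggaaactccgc
Ifit1, chr19:34640759-34640839, plus strand: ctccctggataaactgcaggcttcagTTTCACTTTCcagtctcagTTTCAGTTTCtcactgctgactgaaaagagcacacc
Bst2, chr8:71537561-71537634, minus strand: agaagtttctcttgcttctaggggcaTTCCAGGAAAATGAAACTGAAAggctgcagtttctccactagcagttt
Irgm1, chr11:48871421-48871476, minus strand: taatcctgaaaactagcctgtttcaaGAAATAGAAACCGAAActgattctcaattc
Irgm2, chr11:58214876-58214948, plus strand: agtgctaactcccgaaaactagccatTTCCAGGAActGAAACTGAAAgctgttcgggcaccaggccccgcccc
Igtp, chr11:58199485-58199555, plus strand: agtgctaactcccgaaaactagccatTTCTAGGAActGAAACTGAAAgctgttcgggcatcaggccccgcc
Isg15 held 3 ISRE cores that overlap one another, between 78 and 56 bases before its start. Ifit1 and Irgm1 held 2 each, and those of Ifit1 read on the opposite strand. In Bst2 a GAS overlapped the first of 2 ISRE cores, which also overlap each other. Irgm2 and Igtp, which lie beside each other on chromosome 11, carried a GAS followed by an ISRE core, and their stretches differed at 2 of 71 aligned bases. Of the other called genes, Ifih1 had a match only after its start, and Irf7 and Herc6 had no ISRE core within these windows.

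Interferon-stimulated genes were called higher more often than lower in the telmisartan group, by modest amounts. Of the 43 genes, 5 were higher (11.6%, where 3.08% of all genes were), 1 was lower (2.33%, against 3.50% of all genes) and 37 were not past the thresholds. The higher genes were Ifit1, Herc6, Irf7, Isg15 and Ifih1, all type I genes, and the lower gene was Bst2. The type I genes had a median log2 fold change of 0.14, with 22 of 31 above 0, where 49.8% of all genes were above 0. The GTPases had a median of 0.19, with 5 of 6 above 0 and none called. The antigen processing genes had a median of -0.06, with 0 of 6 above 0 and none called. The members were listed with results of these arrays known, so that these counts describe the list and carry no test of it.

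**Figure D1:**
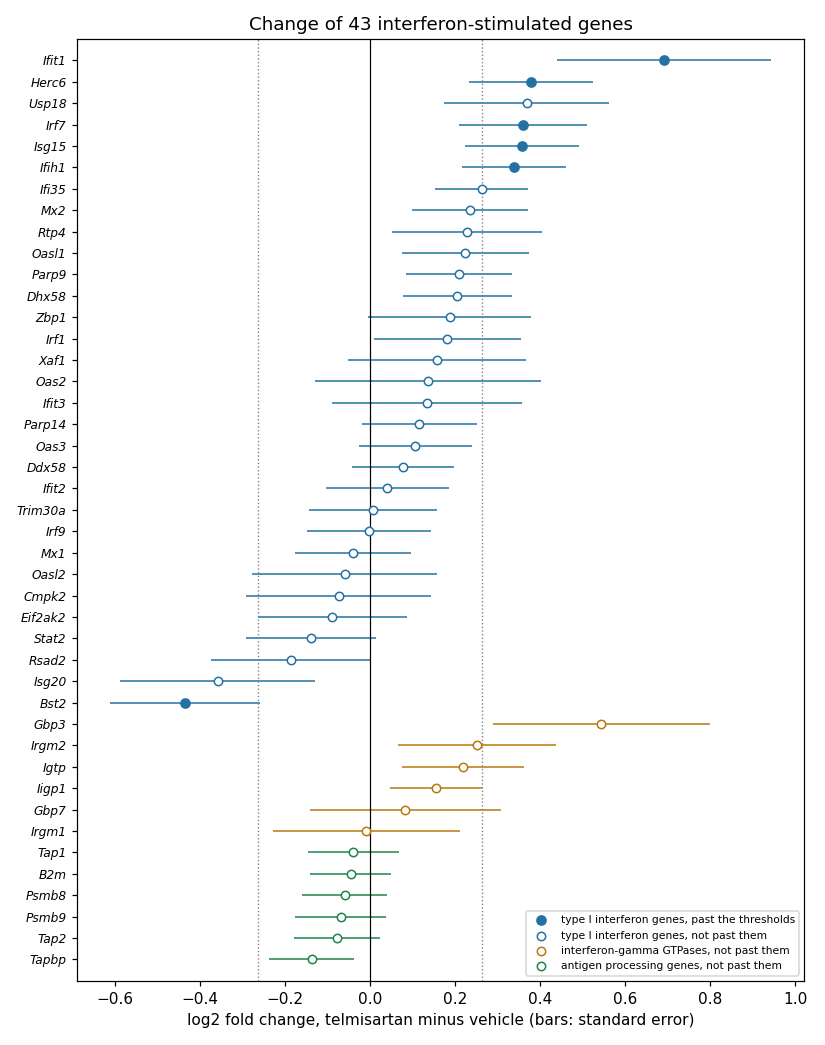
Log2 fold change of each of the 43 genes, telmisartan minus vehicle, with its standard error as a bar, in the 3 classes (colours). Filled points are past the thresholds by limma and dotted lines mark a fold of 1.2. Ifit1 lies farthest to the right at 0.69 and Bst2 farthest to the left at -0.44, while the antigen processing genes all lie within 0.14 of 0.

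Of the regulators, Irf7 was higher in the telmisartan group. IRF7 is the transcription factor that amplifies the type I interferon response, and its own gene is a target of it. Irf7 was at 6.85, 6.57 and 6.71 in log2 intensity on telmisartan arrays 1, 2 and 3, against 6.58, 6.06 and 6.41 on vehicle arrays 1, 2 and 3. The groups overlapped, with vehicle 1 just above telmisartan 2. This gave a log2 fold change of 0.36 ± 0.15 (SE), with an unadjusted p of 0.0431 by limma.

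The factors that carry the signal to the ISRE were not called. Stat2 was at 6.34, 5.84 and 6.15 with telmisartan, against 6.31, 6.05 and 6.38 with vehicle. Irf9, which encodes a DNA-binding partner of STAT2, was at 5.83, 5.36 and 5.80 with telmisartan, against 5.61, 5.61 and 5.77 with vehicle. Telmisartan 2 was the lowest array for both genes. The log2 fold change was -0.14 for Stat2 (95% interval -0.49 to 0.21) and -0.0017 for Irf9 (95% interval -0.34 to 0.33). Irf1, an early target of interferon-gamma, was at 5.04, 5.33 and 5.23 with telmisartan, against 4.76, 4.91 and 5.39 with vehicle, a log2 fold change of 0.18 with a 95% interval of -0.21 to 0.58. Its highest and its lowest value were both in the vehicle group.

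Among the 5 sensors of foreign nucleic acid, Ifih1 was higher. Ifih1 encodes MDA5, which binds long double-stranded RNA. It was at 7.07, 7.02 and 6.95 with telmisartan, against 6.90, 6.54 and 6.58 with vehicle, and all telmisartan arrays lay above all vehicle arrays. This gave a log2 fold change of 0.34 ± 0.12 (SE), with an unadjusted p of 0.0240 by limma, and Ifih1 was the only gene of the 43 that the methods' t-test also called at the same thresholds, with a p of 0.0432, where that test called 1.47% of all genes higher and 1.75% lower. Ddx58, which encodes the RNA sensor RIG-I, had a log2 fold change of 0.08 and a 95% interval of -0.20 to 0.35. Dhx58, the regulator LGP2, and Zbp1, a sensor of Z-form nucleic acid, had log2 fold changes of 0.21 and 0.19. Eif2ak2, the kinase PKR that halts translation, gave -0.09. None of these 4 genes was past the thresholds.

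Ifit1 showed the largest change of all 43 genes. Its product, IFIT1, binds viral RNA that lacks the host cap methylation. Ifit1 was at 5.65, 5.01 and 5.70 with telmisartan, against 5.21, 4.32 and 4.75 with vehicle. Telmisartan 1 and 3 stood above every vehicle array, while telmisartan 2 lay below vehicle 1. This gave a log2 fold change of 0.69 ± 0.25 (SE), with an unadjusted p of 0.0244 by limma. Its relatives Ifit3 (0.13) and Ifit2 (0.04) were not called. Ifit2 was dim, with values of 2.51 to 2.92 on the 6 arrays, below the median of the probe sets.

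Isg15 and Herc6 were higher, and both act in one pathway. ISG15 is a ubiquitin-like protein that is attached to other proteins, HERC6 is the mouse ligase that attaches it, and USP18 takes it off and also restrains the type I interferon receptor. Isg15 was at 5.37, 4.96 and 5.31 with telmisartan, against 4.86, 4.76 and 4.95 with vehicle, so that telmisartan 2 lay just above vehicle 3. Herc6 was at 6.29, 6.32 and 6.24 with telmisartan, against 6.03, 5.59 and 6.10 with vehicle. For both genes every telmisartan array lay above every vehicle array. Their log2 fold changes were 0.36 ± 0.13 (SE) for Isg15 and 0.38 ± 0.15 (SE) for Herc6, with unadjusted p of 0.0274 and 0.0312 by limma. Usp18 had a difference of like size that was not past the thresholds, and vehicle 3 lay among the telmisartan arrays. It was at 6.69, 6.35 and 6.69 with telmisartan, against 5.97, 6.01 and 6.64 with vehicle, a log2 fold change of 0.37 with a 95% interval of -0.08 to 0.81.

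**Figure D2:**
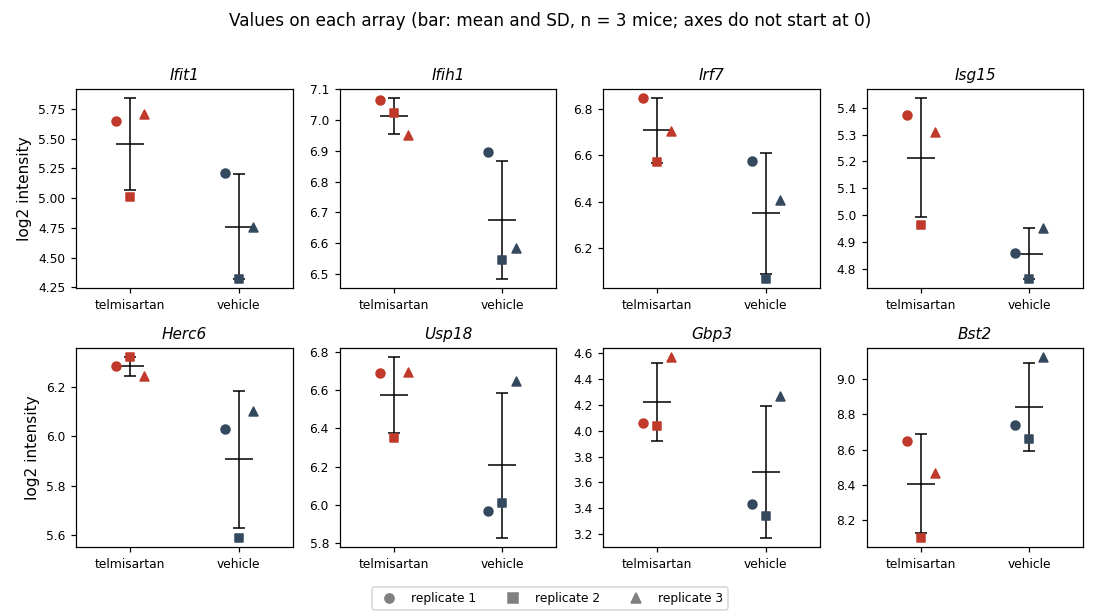
Log2 intensity on each array of the 6 called genes and of Usp18 and Gbp3, both among the 5 largest changes, telmisartan left and vehicle right, with the mean and SD (n = 3 mice each) as bars. The groups lie apart for Ifih1, Isg15, Herc6 and Bst2 and overlap for the other 4 genes.

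The oligoadenylate synthetase genes, whose products activate the antiviral RNase L or bind RNA sensors, were not called. Oasl1, the brightest of the 4, was at 5.11, 4.75 and 5.08 with telmisartan, against 4.74, 4.56 and 4.98 with vehicle, a log2 fold change of 0.22 with a 95% interval of -0.12 to 0.56. Oas2 and Oasl2 varied most within the vehicle group. Oas2 stood at 4.11 on vehicle 1 and at 5.32 on vehicle 3, which bracket the telmisartan range of 4.72 to 5.02. Oasl2 likewise stood at 3.56 on vehicle 1 and 4.51 on vehicle 3, with 3.86 to 4.02 in the telmisartan group. The log2 fold changes of Oas2, Oas3 and Oasl2 were 0.14, 0.11 and -0.06.

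Bst2 was the only gene called lower. It encodes tetherin, a membrane protein that holds budding viruses at the cell surface. Bst2 was at 8.65, 8.10 and 8.47 with telmisartan, against 8.74, 8.66 and 9.12 with vehicle. The groups lay apart, but telmisartan 1 and vehicle 2 differed by little. This gave a log2 fold change of -0.44 ± 0.18 (SE), with an unadjusted p of 0.0372 by limma.

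Markers of sinusoidal endothelial cells moved with Bst2. All 8 were lower on average with telmisartan, and 7 of the 8 were called lower, where 3.50% of all genes were. The 7 ran from -0.74 for Clec4g, a lectin of these cells, to -0.38 for Stab2, a scavenger receptor. Stab1, at -0.23, was not called. The summed intensity of the 8 was 487 to 703 in the telmisartan group and 745 to 916 in the vehicle group. None of the 8 was below 5.12 in log2 intensity on any array. The 6 arrays stood in the same order by Bst2 and by this sum, which was noticed after the values were seen. The sums of all 10 cell type lists were compared with Bst2 in this way, and the others matched its rank on 0 to 4 arrays. The list of plasmacytoid dendritic cells, which matched on 3, holds Bst2 itself and so is not an independent comparison. The endothelial match is thus the best of 10 and carries no test. The stellate cell markers also lay lower, all 7 on average with a median of -0.18. Only Lrat, an enzyme of vitamin A storage, was called lower (-0.56), where 3.50% of all genes were. The summed intensity of the stellate markers was 183 to 241 in the telmisartan group and 225 to 279 in the vehicle group. Kupffer cell markers lay lower as well, 9 of 10 on average with a median of -0.18, and 2 were called lower, against the same 3.50%. The part of any of these cell types in the result for Bst2 was not tested. In whole liver RNA, fewer cells of a type and less RNA per cell cannot be told apart.

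**Figure D3:**
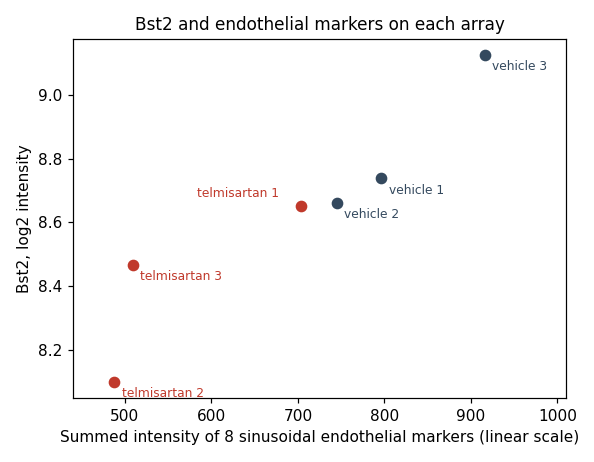
Bst2 in log2 intensity against the summed linear intensity of 8 sinusoidal endothelial markers on each array, telmisartan in red and vehicle in dark blue. The axes do not start at 0. Telmisartan 2 is lowest on both axes, at 8.10 and 487, and vehicle 3 highest, at 9.12 and 916. Of 10 cell type lists compared, the one with the closest match in array order is shown.

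The other antiviral effectors were not called. Ifi35, a partner of the adaptor NMI, had a fold just under 1.2 and an unadjusted limma p of 0.0416. It was at 6.49, 6.29 and 6.30 with telmisartan, against 6.03, 6.19 and 6.08 with vehicle, with every telmisartan array on top. Its other, dim probe set gave a log2 fold change of -0.05. Mx2 (0.24), Rtp4 (0.23), which encodes a chaperone of receptors, and Xaf1 (0.16), a promoter of apoptosis, were on the same side. Isg20, an RNA exonuclease, gave -0.36, with the lowest value on telmisartan 3 at 4.19 and the highest on vehicle 3 at 5.37. Rsad2, which encodes viperin, gave -0.19 and its neighbour Cmpk2, whose product supplies nucleotides to viperin, -0.07.

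Dim probe sets limit what can be said of 3 genes. Mx1, Trim30a and Ifit2 had group means below 3 in log2 intensity in both groups. Mx1 lay between 1.44 and 1.87, and the Mx1 gene of C57BL/6 mice is known to lack part of its coding sequence. Parp14, an ADP-ribosyltransferase, was at 6.74, 6.49 and 6.33 with telmisartan, against 6.53, 6.27 and 6.41 with vehicle, and the log2 fold changes of Parp14 and of Parp9, also of this family, were 0.12 and 0.21. The groups overlapped for both, and neither was called.

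None of the 6 interferon-gamma GTPases was called, although Gbp3 had the second largest change of the 43 genes. These proteins coat the vacuoles in which intracellular bacteria and parasites hide. Gbp3 was at 4.06, 4.04 and 4.57 with telmisartan, against 3.43, 3.34 and 4.27 with vehicle, a log2 fold change of 0.54 with a 95% interval of -0.04 to 1.13. Vehicle 3 again lay among the telmisartan arrays. Iigp1, the brightest, was at 9.58, 9.61 and 9.45 with telmisartan, against 9.51, 9.38 and 9.28 with vehicle, a log2 fold change of 0.16 with a 95% interval of -0.09 to 0.40. The neighbours Irgm2 and Igtp, whose promoter stretches are nearly the same, gave 0.25 and 0.22, both highest on telmisartan 1. Irgm1, a regulator of the other Irg proteins, gave -0.0087, and its highest value, 5.46, was on vehicle 1. Gbp7 gave 0.08.

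The antigen processing genes hardly varied from array to array. They encode immunoproteasome subunits (Psmb8, Psmb9), the peptide transporter of the endoplasmic reticulum (Tap1, Tap2), its tether tapasin (Tapbp) and the light chain of MHC class I (B2m). B2m was at 11.75, 11.75 and 11.78 with telmisartan, against 11.77, 11.79 and 11.85 with vehicle, a log2 fold change of -0.05 with a 95% interval of -0.26 to 0.17. Their median SD was 0.0448 in the telmisartan group and 0.0795 in the vehicle group. The median SD with telmisartan and with vehicle was 0.20 and 0.22 for the type I genes, 0.22 and 0.37 for the GTPases, and 0.14 in both groups for all genes. The 6 changes ran from -0.14 for Tapbp to -0.04 for Tap1, and 5 of the 6 genes were highest on vehicle 3. Tapbp was the only one whose groups lay apart, with every telmisartan array below every vehicle array. Psmb9 and Tap1 lie head to head, their promoter windows share 275 bases, and their log2 fold changes were -0.07 and -0.04.

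Every telmisartan array lay above every vehicle array for 4 of the 43 genes and below for 2, where this held for 6.08% and 6.35% of all genes. An exact permutation test of 3 arrays against 3 cannot give a 2-sided p below 0.1. Telmisartan 1 was the highest array for 11 of the 31 (35.5%, against 14.9% of all genes) and the lowest for 0, while vehicle 2 was the lowest for 11 (35.5%, against 13.4% of all genes) and the highest for 1. Vehicle 1 was the lowest array for 10 (32.3%, against 20.8% of all genes). Telmisartan 2 was the lowest for 7 (22.6%), near the 20.7% of all genes. Neighbouring genes of the list mostly shared a sign. Of 9 pairs with no other protein-coding gene between them, 8 had changes of the same sign, and the exception was Oasl2 beside Oasl1. The pairs among Psmb9, Tap1, Psmb8 and Tap2 share genes with one another. The share among all neighbouring genes of the genome was not computed.

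**Figure D4:**
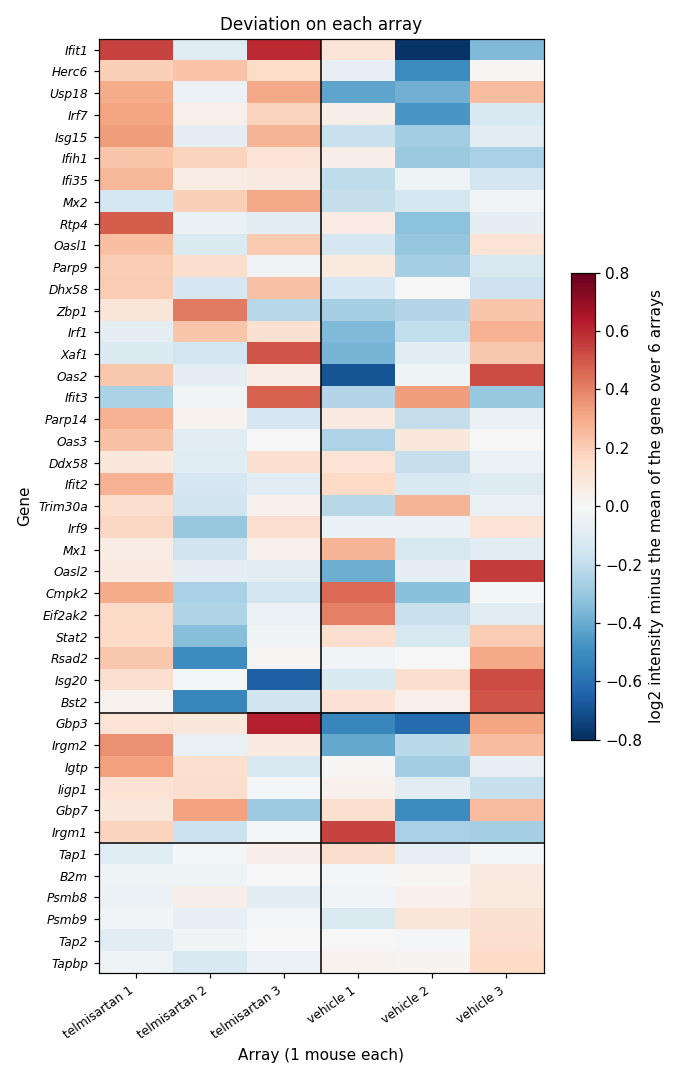
Log2 intensity of each of the 43 genes on each array minus the mean of that gene over the 6 arrays (colour, red above and blue below), telmisartan left of the line and vehicle right of it, with horizontal lines between type I genes, GTPases and antigen processing genes. Vehicle 2 is blue for most type I genes, telmisartan 1 red for most, and the antigen processing genes are pale throughout.

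None of the 6 calls was made each time with 1 array left out in turn, although all 6 genes kept their direction. Across those 6 sets, 2.61% to 3.47% of all genes were called higher and 2.63% to 4.41% lower. The calls of Ifit1, Irf7, Isg15, Herc6 and Ifih1 were each made in 2 of the 6 sets of 5 arrays and that of Bst2 in 3. Without vehicle 2 the log2 fold change was 0.47 for Ifit1, 0.22 for Irf7 and 0.22 for Herc6, while Ifit1 gave 0.92 without vehicle 1. The median of the type I genes was 0.06 without telmisartan 1, against 0.14 with all arrays. Without telmisartan 1 or vehicle 2, only 1 gene was higher, Mx2 in the first case and Ifi35 in the second, and neither is among the 5. Without telmisartan 3 the higher genes were 2, Ifih1 and Igtp. Without vehicle 3 they were 6, of which Isg15 and Herc6 were among the 5 and Gbp3, Irf1, Irgm2 and Usp18 were not. Without telmisartan 2 the higher genes were Ifit1, Irf7 and Isg15 of the 5, with Dhx58 and Ifi35. Without vehicle 1 they were Ifit1, Irf7, Herc6 and Ifih1 of the 5, with Parp9. Bst2 was not called without telmisartan 2 (-0.28), telmisartan 3 (-0.47) or vehicle 3 (-0.29).

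**Figure D5:**
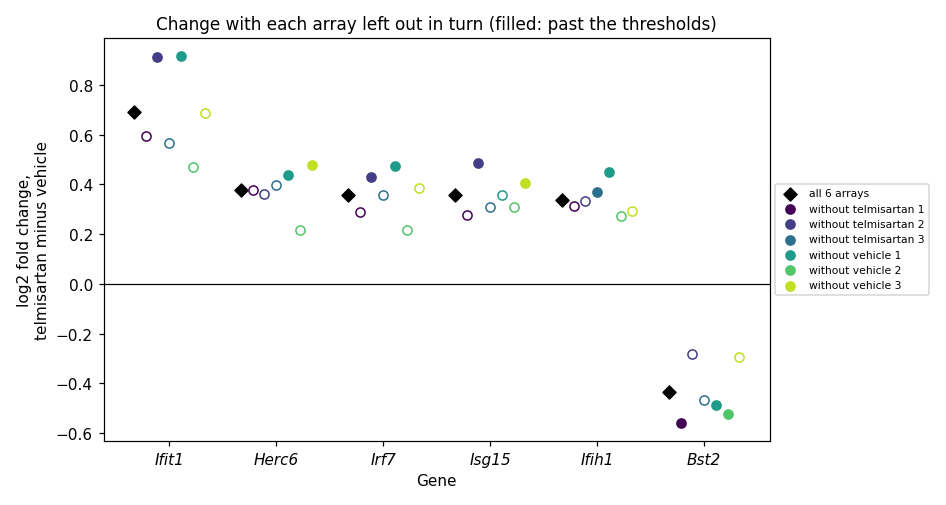
Log2 fold change, telmisartan minus vehicle, of the 6 called genes with all 6 arrays (diamonds) and with each array left out in turn (circles). Filled symbols are past the thresholds. All symbols keep the side of 0 of their diamond, and no gene has 6 filled circles.

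Upstream of these genes, 1 of 47 measured components of the pathway was called higher (2.13%, where 3.08% of all genes were) and 2 were lower (4.26%, against 3.50%), both shares near those of all genes. Of 19 interferon and receptor genes measured, 1 was higher and 1 was lower. Many of the interferon probe sets were dim, which limits what can be said of them. Ifnb1 and Ifng had group means of 2.04 and 1.78 in the telmisartan group and 2.06 and 1.83 in the vehicle group. Ifna1, a type I interferon, was at 4.48, 4.76 and 4.49 with telmisartan, against 4.77, 5.10 and 5.17 with vehicle (log2 fold change -0.43, standard error 0.14). The interferon gene Ifnk, a type I interferon of skin, was at 1.81, 2.30 and 2.12 with telmisartan, against 1.52, 1.74 and 1.31 with vehicle, all below the median of the probe sets. Interferon-alpha genes resemble one another, so it is uncertain which of them the Ifna1 probe set reads. None of 15 genes of JAK-STAT signalling was called. Of 13 genes of sensing and its adaptors, Sting1, the adaptor of DNA sensing, was lower, at 3.09, 3.06 and 2.85 with telmisartan, against 3.34, 3.45 and 3.73 with vehicle (log2 fold change -0.51, standard error 0.13), near the median of the probe sets.

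Of 53 further interferon-induced genes, 5 were higher (9.43%, where 3.08% of all genes were) and 2 lower (3.77%, against 3.50% of all genes). The higher genes were Trim12c (0.58), Oas1b (0.42), Phf11d (0.38), Trim34a (0.36) and Trim21 (0.33), an antibody receptor of the cytosol. Trim21 was at 4.68, 4.81 and 4.72 with telmisartan, against 4.65, 4.34 and 4.21 with vehicle. The probe sets of Trim12c, Oas1b and Phf11d were dim, with group means of 1.96, 3.08 and 3.08 in the telmisartan group and 1.38, 2.66 and 2.70 in the vehicle group. The lower genes were Apobec3 (-0.39), a cytidine deaminase that restricts retroviruses, and Cxcl10 (-0.28), a chemokine that draws T cells. The unadjusted limma p of Cxcl10 was 0.0486.

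No leukocyte marker was called higher. None of 10 markers of T and NK cells, 6 of monocytes, 3 of B cells or 7 of neutrophils was called, where 3.08% of all genes were higher and 3.50% lower. Most of these markers were dim, which limits what can be said of them. All those of B cells and neutrophils had group means below the median of the probe sets. So did most of those of T and NK cells and of monocytes, such as Cd8a (2.30 with telmisartan, 2.22 with vehicle) and Ccr2 (2.18 and 2.19). Of 7 markers of plasmacytoid dendritic cells, the main source of type I interferon in blood, Bst2 itself was the only one called. The T and NK cell markers summed to 82.7 to 90.4 in the telmisartan group and 88.8 to 98.5 in the vehicle group, and the monocyte markers to 52.9 to 58.1 in the telmisartan group and 49.5 to 65.8 in the vehicle group. Of 10 Kupffer cell markers, 9 were lower on average. Of the 10, 2 were called lower, Marco (-1.35) and Vsig4 (-0.28), where 3.50% of all genes were, and 0 higher. The Kupffer cell markers summed to 870 to 980 in the telmisartan group and 899 to 1390 in the vehicle group. None of the 10 cell type lists held a gene called higher.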

How the data were processed

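Liver RNA of 6 STAM mice was hybridized to 6 Affymetrix arrays. The authors normalized them by RMA and deposited linear intensity values of 31873 probe sets (1.417 to 7834.8), so the values can be compared between arrays, while signals near background understate fold changes. Per the study, these were the probe sets with a signal on every array. The RMA version is unstated in the sources used here. Their log2 was taken without a pseudocount. The platform annotation paired 23094 probe sets with 1 symbol (22087 genes) and 1770 with several, and did not list 7009. These 23094 were fitted with limma 3.58.1 in R 4.3.3 (lmFit, eBayes, prior degrees of freedom 4.38, 2-sided, Benjamini-Hochberg over all of them), and the script was tested on simulated data. The alternatives were the methods' t-test, a replicate block, 2 further normalizations, a pseudocount of 16, a filter on dim probe sets, other probe set choices, another prior and each array left out. The thresholds are those of the study's methods, which applied them with t-tests, while the calls here are by limma unless stated. The members and lists were chosen with earlier results of these data known. Values on every array are given for called members, those apart by 1.2-fold, the 5 largest changes, Irf1, Irf7, Irf9, Stat2 and the brightest of each role, while Ifi35 and other values given were chosen after seeing them. Promoter windows are RefSeq's (GRCm38.p6), matched by symbol. Probes of related genes may bind each other's RNA, and the number of arrays limits the precision. The labels give a group and a replicate number for each array but no cage or batch, so none was tested. That each array holds 1 mouse is taken from the study, which describes 3 mice per group.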

Additional observations from a re-analysis of the deposited data

How the results depend on the processing

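With the 15 alternatives, the medians of the 3 classes kept their sign and ran from 0.061 to 0.20 for the type I genes, from 0.12 to 0.26 for the GTPases and from -0.093 to -0.033 for the antigen processing genes. Without telmisartan 1 the median was 0.061 for the type I genes and 0.12 for the GTPases, and without vehicle 3 it was -0.033 for the antigen processing genes. The 5 genes called higher were 1 with the methods' t-test (Ifih1, where 1.47% of all genes were higher) and 3 with a pseudocount of 16 (Herc6, Ifih1 and Irf7, where 0.616% of all genes were higher and 1.29% lower). Bst2, the 1 gene called lower, was not called in either, which left 0. With 1 array left out, 1 to 6 genes were higher and 0 to 1 lower. In the other alternatives 5 to 7 genes were higher, where 2.87% to 3.29% of all genes were, and Bst2 was lower. Whether the replicate numbers of the labels pair the arrays could not be decided with 3 arrays per group. The deviations of telmisartan and vehicle arrays correlated by -0.020 to 0.040 with the same number and by -0.073 to 0.060 with different numbers. With the replicate block 7 genes were higher, the same 5 with Gbp3 and Usp18, where 3.29% of all genes were higher. The change of Irf9, -0.0017, ran from -0.086 to 0.15 with 1 array left out and turned its sign with quantile normalization (0.028), cyclic loess (0.019), the pseudocount (0.0014), without telmisartan 2 (0.15) and without vehicle 3 (0.053). Of 223 values recomputed for 15 named genes, 181 kept their direction and side of the thresholds, 31 lost a call, 6 gained one and 5, all of Irf9, changed sign. The filter on dim probe sets removed Gbp3 and other dim genes, so its counts cover fewer of the 43.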
